A study of Sus scrofa with 8 samples.

Results

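The genes described are the drug-metabolizing cytochrome P450s, flavin monooxygenases and aldo-keto reductases, with the glucuronosyl-, sulfo- and glutathione transferases that conjugate their products. They were followed in endometrium, the lining of the uterus, of pregnant Meishan and Yorkshire gilts. Members were chosen by name alone, as probesets whose symbol begins with CYP and a digit, UGT1, UGT2, SULT, FMO and a digit, GSTM, GSTP, GSTO or AKR1. Probesets of the steroid synthesis genes CYP11A1, CYP17A1 and CYP19A1 were left out, 9 in number. The rule found 65 of the 23999 non-control probesets of the array, a probeset being a group of short probes against 1 porcine transcript sequence. The annotation of the array gives 60 of them such a symbol, and 5 carry one only in the study's own list of changed transcripts. Those 5 (CYP2D6, CYP3A4, GSTM1, GSTP1 and SULT4A1) had a name here because the study had already called them, so their values are a description with no test. The 65 probesets carry 45 distinct names, and 6 of the probesets stand for several genes at once. CYP19A3, another gene of the aromatase family, remained by the letter of the rule with 8 probesets.

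The study set a prolific Chinese breed beside a commercial one on day 12 of gestation, when conceptuses elongate and signal their presence to the uterus. Each group held 4 gilts, Meishan or Yorkshire, bred naturally at an early estrus to boars of their own breed, and only uteri with filamentous conceptuses throughout were used. No treatment was given, so breed is the only label that separates the groups. RNA of whole endometrium, a mixture of epithelium, glands, stroma, vessels and leucocytes, was hybridized to 1 one-colour Affymetrix Porcine array per gilt. In such tissue, fewer cells of a type and less RNA per cell cannot be told apart. The paper describes the genomes of the breeds as phylogenetically distinct. Sequence under the probes was not compared between breeds, so a difference in RNA amount cannot be told apart from one in probe match. Values given per gilt are the deposited signals, intensities without a unit, after each array was centred on its median, and they are listed in the order gilt 1 to gilt 4 of each breed. Means are geometric means of 4 gilts. A difference is Meishan minus Yorkshire on the log2 scale with its standard error (SE), from limma across all probesets, and a probeset was called at a Benjamini-Hochberg adjusted p under 0.1. A signal of 64 served as the level under which values were treated as near background, and no fold is given where the lower breed mean lies below it. Signals of different probesets are not amounts that can be set against each other, so a probeset, a ratio of probesets or a summed list is compared only across gilts.

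Cytochrome P450s are heme enzymes of the endoplasmic reticulum that insert oxygen into drugs, steroids, fatty acids and vitamins, using electrons from cytochrome P450 reductase and cytochrome b5. Flavin monooxygenases oxidize nitrogen and sulfur atoms, and aldo-keto reductases reduce carbonyl groups, including those of steroids and prostaglandins. The transferases then attach glucuronic acid, sulfate or glutathione, which makes a compound more soluble or, for estrogens, keeps it from its receptor. The liver is the main site of most of these enzymes, while uterine tissue is known for sulfating and glucuronidating steroids under the control of progesterone.

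Most members gave low signals in endometrium. Of the 60 probesets named by the array, 22 reached 64 in all 8 gilts and 13 in none, and the mean over all gilts was at least 64 for 27. The breeds differed at few of them. In limma, 4 of the 60 were called, where 0.908% of all probesets tested were called. The signal was higher in Meishan at 3 (CYP2C32, CYP2C49 and UGT2B31) and in Yorkshire at 1 (CYP2D25). The second probesets of CYP2C32, UGT2B31 and CYP2D25 were not called. An unadjusted p under 0.05 was reached by 17 of the 60 (28.3%, 12 toward Meishan and 5 toward Yorkshire) beside 14.8% of all probesets. The 4 gilts of one breed lay wholly above the 4 of the other at 13 of the 60 (21.7%), beside 10.1% of all probesets. Of these 13, Meishan was above at 11, where 5.01% of all probesets had Meishan above, and Yorkshire at 2, where 5.09% had Yorkshire above. The median difference of the 60 was 0.33, beside 0.02 over all probesets.

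The separation of the breeds was found mostly among dim members. At 9 of the 33 members with a mean below 64 (27.3%) the breeds did not overlap, where 7.18% of all such dim probesets did not. At 4 of the 27 brighter members (14.8%) they did not overlap, beside 11.4% of all brighter probesets. Dim probesets of the whole array also lay toward Meishan, 64% of them, with a median difference of 0.32, beside 24 of the 33 dim members (72.7%). Scaling moved this lean. After quantile normalization, 52% of all dim probesets and 19 of the 33 dim members lay toward Meishan. The breeds then did not overlap at 8 of the 33 (24.2%), beside 5.62% of all dim probesets under that scaling.

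**Figure D1:**
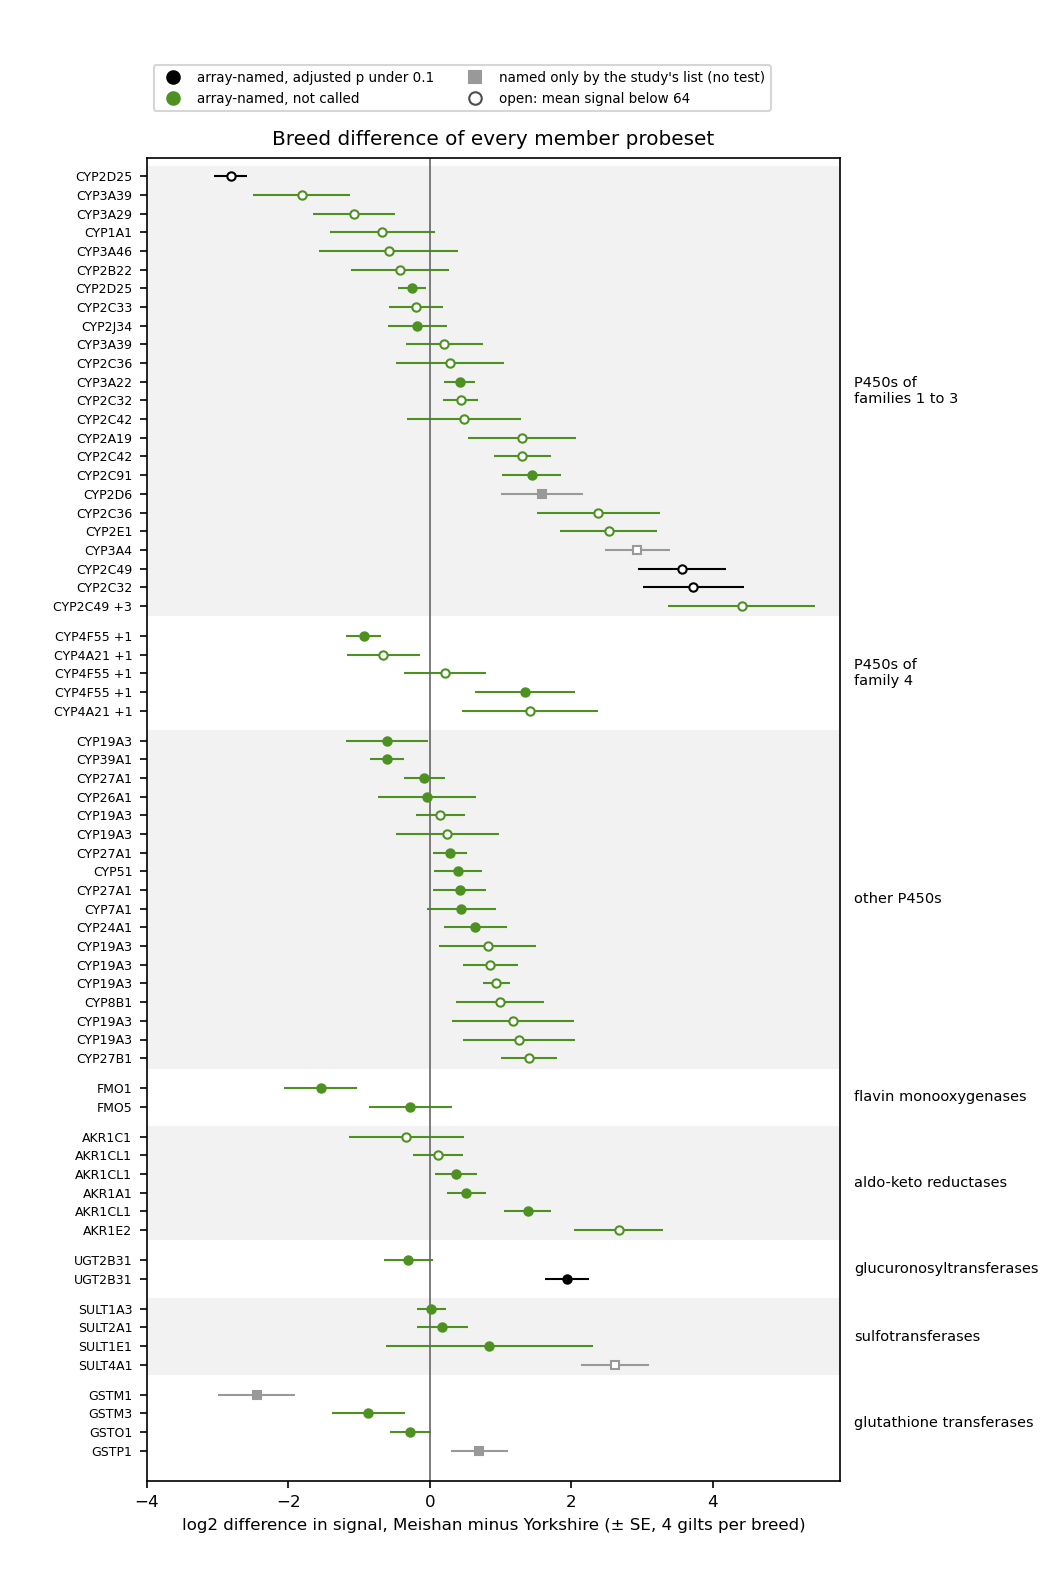
Each point is the log2 difference, Meishan minus Yorkshire, of 1 member probeset with its standard error, grouped by enzyme family, and the vertical line marks no difference. Black points were called, grey squares are the 5 named only by the study's list, and open symbols have a mean signal below 64. The differences run from -2.82 for the dim CYP2D25 probeset to 4.41 for the probeset shared by 4 CYP2C genes.

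P450s of families 1 to 3, the enzymes best known for oxidizing drugs, gave 22 array-named probesets. Of these, 3 were called (13.6%) and 8 did not overlap (36.4%), beside 0.908% and 10.1% of all probesets. The CYP2C group stood on the Meishan side. Of its 10 probesets, 2 were called and 6 had all Meishan gilts above all Yorkshire gilts, and the difference was toward Meishan at 9 (median 1.38). Over all probesets, 0.908% were called, 5.01% had Meishan above without overlap, and 64% of the dim ones lay toward Meishan. Quantile normalization left 8 of the 10 toward Meishan and the same number, 6, without overlap. Under that scaling 50.9% of all probesets lay toward Meishan and 9.05% did not overlap in either direction. These probesets are not independent: CYP2C36, CYP2C32, CYP2C49 and CYP2C42 lie close together in the current pig genome, and 1 probeset is annotated to CYP2C49, CYP2C36, CYP2C34 and CYP2C32 together. The study's list gives the single human-type name CYP2C18 to 3 of them. In 9 of the 10 the mean over all gilts was below 64.

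CYP2C49, a pig P450 of the CYP2C group, had signals of 160.2, 46.3, 219 and 136 in Meishan and 13.2, 14.2, 3.63 and 16.6 in Yorkshire gilts. The breeds did not overlap, although Meishan gilt 2 stood well below the other Meishan gilts. The difference was 3.56 (SE 0.62, limma adjusted p = 0.0747), with a Yorkshire mean of 10.3 near background. With signals below 32 set to 32 the difference shrank to 1.93, and CYP2C49 was called in 5 of 16 alternative settings. When single gilts were left out it was called only without Meishan gilt 2, and the adjusted p ran up to 0.169.

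The called CYP2C32 probeset, whose probes match more than 1 transcript by the array's naming, gave 54.5, 42.6, 142 and 51.4 in Meishan and 5.39, 18.7, 2.32 and 2.36 in Yorkshire gilts. Every Meishan gilt was higher than every Yorkshire gilt, and Meishan gilt 3 was the highest of all. The difference was 3.73 (SE 0.71, limma adjusted p = 0.092), 1.00 with signals below 32 set to 32. The call was kept without 1 of the 8 gilts, Yorkshire gilt 2, and lost when any other was left out. The second CYP2C32 probeset lay between 8.17 and 16.7 in all gilts, with breeds that overlapped and a difference of 0.43 (SE 0.25, limma adjusted p = 0.46).

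The probeset shared by CYP2C49, CYP2C36, CYP2C34 and CYP2C32 had signals of 135, 60.1, 549.5 and 168 in Meishan and 12.6, 34.9, 6.47 and 1.29 in Yorkshire gilts. Its difference of 4.41 (SE 1.04) was not called (limma adjusted p = 0.132), and with signals below 32 set to 32 it was 2.34. Meishan gilt 3 was again the highest, as it was for CYP2C49, for the called CYP2C32 probeset and for the CYP2C36 and CYP2C42 probesets without overlap. Which of these neighbouring genes each probeset reads could not be settled.

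CYP2C91 was the only CYP2C probeset well above background in every gilt. It gave 1554, 629.6, 755 and 471 in Meishan and 231, 386, 187 and 382 in Yorkshire gilts, so the lowest Meishan gilt stood above the highest Yorkshire gilt. The mean was 768 in Meishan and 283 in Yorkshire, 2.72-fold apart (difference 1.44, SE 0.41, limma adjusted p = 0.185), and it was not called. It was called where only probesets with a mean of at least 64 were tested and with an intensity trend in the variance prior. Of the other CYP2C members, the breeds did not overlap at 1 CYP2C42 probeset (61.4, 54.1, 123 and 49.1 in Meishan and 39.9, 15.7, 37.7 and 22.5 in Yorkshire gilts, limma adjusted p = 0.204) nor at 1 CYP2C36 probeset (limma adjusted p = 0.265). CYP2C33 and the remaining CYP2C36 and CYP2C42 probesets overlapped, with differences from -0.20 to 0.48.

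CYP2E1, which oxidizes ethanol and other small molecules, had signals of 48.2, 49.5, 99.8 and 99.2 in Meishan and 4.66, 37.7, 6.08 and 20.0 in Yorkshire gilts. All Meishan gilts lay above all Yorkshire gilts, but Yorkshire gilt 2 came close to them. The difference of 2.53 (SE 0.68) was not called (limma adjusted p = 0.169) and was 1.06 with signals below 32 set to 32. CYP1A1, CYP2A19, CYP2B22 and CYP2J34 overlapped between the breeds, with differences from -0.67 for CYP1A1, the classic target of the aryl hydrocarbon receptor, to 1.30 for CYP2A19.

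The liver is the tissue best known for these P450s, so its markers were read beside them. Of 12 liver markers measured, 8 had a mean below 64, and albumin lay between 6.09 and 60.8 in Meishan and between 3.55 and 46.3 in Yorkshire gilts. The summed liver list, most of it apolipoprotein A1, lay at 6090 to 11980 in Meishan and 9979 to 13430 in Yorkshire gilts. CPS1, the mitochondrial enzyme that starts the urea cycle, was the 1 marker of that list that was called. It gave 92.9, 118, 96.0 and 121 in Meishan and 11.2, 20.2, 12.6 and 24.3 in Yorkshire gilts (difference 2.71, SE 0.28, limma adjusted p = 0.0176). Of the 12 markers 5 lay toward Meishan and 7 toward Yorkshire (median -0.32). Among the latter was TF, or transferrin, without overlap (difference -2.22, SE 0.65, limma adjusted p = 0.19). A dimmer TF probeset lay toward Meishan (difference 0.95, SE 0.45, means of 66.4 and 34.4).

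**Figure D2:**
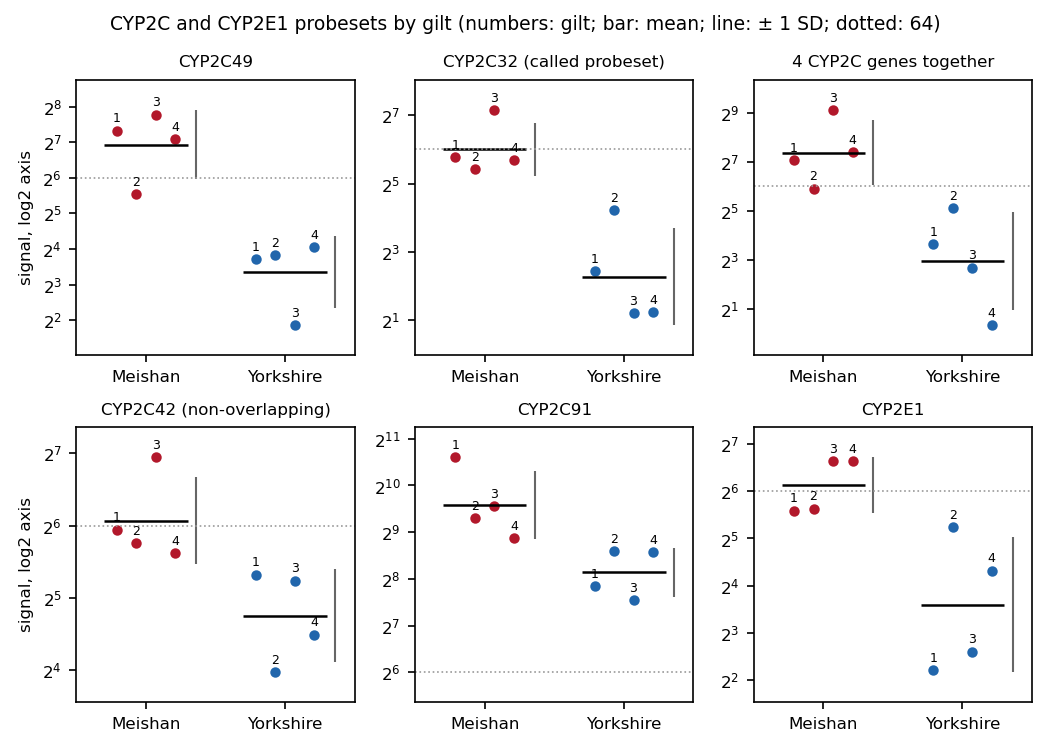
Centred signal of 5 CYP2C probesets and of CYP2E1 in each gilt on a log2 axis, with the gilt number beside each point, a bar at the geometric mean of each breed, a line of 1 SD to each side and a dotted line at 64. In all 6 panels the Meishan gilts lie above the Yorkshire gilts, from 46.3 to 219 against 3.63 to 16.6 for CYP2C49, and for CYP2C91 alone all 8 gilts lie above 64.

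CYP2D25, a pig P450 known for hydroxylating vitamin D, was read by a dim and a bright probeset that did not give the same result. The dim one had signals of 4.01, 3.76, 3.73 and 5.52 in Meishan and 36.2, 29.2, 33.6 and 21.6 in Yorkshire gilts. The breeds lay far apart beside the small spread within each, and the difference was -2.82 (SE 0.23, limma adjusted p = 0.0079), the lowest p of any member. It was called in 14 of 16 alternative settings and in all 8 that left out 1 gilt. Yet no gilt reached 64, and with signals below 32 set to 32 the difference was -0.06. The bright probeset of the same gene gave 1966, 2218, 1862 and 1384 in Meishan and 2024, 2121, 2505 and 2074 in Yorkshire gilts, overlapping, with a difference of -0.25 (SE 0.20, limma adjusted p = 0.61). The difference between these 2 probesets was not tested, since the dim one was near background.

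A further CYP2D probeset, CYP2D6 by the study's list alone, had signals of 4630, 857, 1226 and 1401 in Meishan and 467, 397, 386 and 1188 in Yorkshire gilts. Yorkshire gilt 4 stood apart from its breed and within the Meishan range, and Meishan gilt 1 was the highest of all. The study's list also gives the name CYP2D6 to the dim CYP2D25 probeset, which lay the other way, toward Yorkshire (-2.82). The array names 5 probesets of CYP3A genes, relatives of the broadest drug-oxidizing P450 of human liver. None was called by limma, none was free of overlap and 1 had an unadjusted p under 0.05. Over all probesets these shares were 0.908%, 10.1% and 14.8%, so counts over 5 probesets do not tell this group apart from the array. Of the 5, 2 lay toward Meishan and 3 toward Yorkshire. CYP3A22, the one that reached 64 in all gilts, gave 92.1, 126, 145 and 96.8 in Meishan and 86.9, 88.8, 98.9 and 66.4 in Yorkshire gilts (difference 0.42, SE 0.22, limma adjusted p = 0.426). The genes CYP3A22, CYP3A46 and CYP3A29 lie next to each other in the current pig genome. The probeset that the study's list names CYP3A4 had signals of 21.7, 84.7, 57.2 and 64.3 in Meishan and 4.85, 6.68, 5.51 and 11.1 in Yorkshire gilts, without overlap and mostly near background.

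Family 4 P450s hydroxylate the ends of fatty acids and of eicosanoids such as leukotriene B4. The bright probeset shared by CYP4F55 and CYP4F2 had signals of 2196, 2133, 1550 and 2618 in Meishan and 4779, 2852, 4324 and 4341 in Yorkshire gilts. Every Yorkshire gilt was above every Meishan gilt. The means of 2088 and 3999 were 1.92-fold apart (difference -0.94, SE 0.24), and the probeset was not called (limma adjusted p = 0.158), although it was called among probesets with a mean of at least 64 and with an intensity trend. The 2 other probesets of these genes lay toward Meishan without a call, at 0.21 and 1.35. Both probesets shared by CYP4A21 and CYP4A24 overlapped, with means near background. The one with the higher mean gave 6.62, 12.6, 10.8 and 13.1 in Meishan and 7.42, 10.9, 38.0 and 23.6 in Yorkshire gilts (difference -0.66, SE 0.52).

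The other P450s act on sterols, bile acids, retinoic acid and vitamin D, apart from the aromatase CYP19A3, which holds 8 of their 18 probesets. None of the 18 was called by limma, beside 0.908% of all probesets. An unadjusted p under 0.05 was reached by 3 (16.7%), of which 1 was a CYP19A3 probeset, beside 14.8% of all probesets. CYP51, which removes a methyl group from lanosterol on the way to cholesterol, gave 3744, 2158, 1606 and 3482 in Meishan and 1640, 1527, 2044 and 2928 in Yorkshire gilts, overlapping (difference 0.40, SE 0.34, limma adjusted p = 0.635). CYP39A1, an oxysterol hydroxylase of bile acid synthesis, had signals of 236, 293, 374 and 438 in Meishan and 594, 420.5, 459 and 522 in Yorkshire gilts. Only Meishan gilt 4 reached into the Yorkshire range, and the difference of -0.60 (SE 0.24) did not pass (limma adjusted p = 0.302).

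CYP27B1, the enzyme that activates vitamin D, lay toward Meishan at a low signal, with means of 46.0 and 17.4 (difference 1.40, SE 0.39, limma adjusted p = 0.179). CYP24A1, which inactivates vitamin D, gave 162, 101, 137 and 237 in Meishan and 97.1, 52.6, 84.1 and 209 in Yorkshire gilts, overlapping (limma adjusted p = 0.545). CYP26A1, which clears retinoic acid, gave 200.5 to 953 in Meishan and 223 to 1302 in Yorkshire gilts, with a difference of -0.04 (SE 0.69). CYP7A1, the rate-limiting enzyme of bile acid synthesis in liver, ranged from 256 to 1055 and from 266 to 619 in the 2 breeds. The 3 probesets of CYP27A1, a mitochondrial sterol hydroxylase, also overlapped, and the brightest gave 393, 782, 736 and 743 in Meishan and 766, 663, 828 and 494 in Yorkshire gilts (difference -0.08, SE 0.29).

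The 8 CYP19A3 probesets stand for an aromatase, which makes estrogen from androgen. They were near background in all but 1 case, none was called, and 7 lay toward Meishan (median 0.83), where 64% of all dim probesets did so. At 1 the breeds did not overlap, at 30.8, 25.3, 31.0 and 24.5 in Meishan and 12.0, 17.0, 16.3 and 13.1 in Yorkshire gilts (limma adjusted p = 0.106). The single brighter probeset lay at 66.5 to 478 in Meishan and 199.8 to 439 in Yorkshire gilts and lay toward Yorkshire (difference -0.60, SE 0.58, limma adjusted p = 0.676). Without the CYP19A3 probesets, 12 of 52 array-named members did not overlap (23.1%), and the same 4 were called (7.69%). Over all probesets these shares were 10.1% and 0.908%.

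FMO1, a flavin monooxygenase that oxidizes amines and sulfides, had signals of 866, 1824, 2428 and 1280 in Meishan and 4385, 8431, 5605 and 1722 in Yorkshire gilts. Of the Yorkshire gilts 3 stood above all Meishan gilts, and gilt 4 fell among them. The means were 1489 and 4346, 2.92-fold apart, and the difference of -1.55 (SE 0.52) was not called (limma adjusted p = 0.231). FMO5 gave 334, 709, 662 and 412 in Meishan and 1190, 1101, 551 and 192 in Yorkshire gilts, with Yorkshire gilts both above and below the whole Meishan range (difference -0.28, SE 0.59, limma adjusted p = 0.865). In both genes gilt 4 was the lowest of the Yorkshire gilts.

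Aldo-keto reductases gave 6 probesets, of which 5 lay toward Meishan and none was called by limma, beside 0.908% of all probesets. An unadjusted p under 0.05 was reached by 2, and the breeds did not overlap at 2, beside 14.8% and 10.1% of all probesets. AKR1CL1, a member of the steroid-reducing branch, had signals of 112, 250.3, 184 and 196 in Meishan and 69.4, 41.1, 86.0 and 89.3 in Yorkshire gilts at 1 of its probesets. Those did not overlap, with means 2.61-fold apart (difference 1.38, SE 0.34, limma adjusted p = 0.141). Its brighter probeset overlapped at 420, 182, 205 and 270.1 against 218, 152, 196 and 233 (difference 0.37, SE 0.29), and the dimmest gave 0.12 (SE 0.35). The difference between the brighter 2 in how far they separated the breeds, 1.01 (SE 0.52), did not pass an exact permutation test (two-sided p = 0.143, 0.238 after adjustment over 5 pairs of probesets).

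AKR1E2, a reductase of sugar-derived carbonyls, gave 68.0, 65.7, 22.1 and 66.7 in Meishan and 2.74, 6.55, 17.2 and 12.9 in Yorkshire gilts. Meishan gilt 3 lay far below the other Meishan gilts and just above the highest Yorkshire gilt, and the difference of 2.67 (SE 0.63) was not called (limma adjusted p = 0.132). With signals below 32 set to 32 it was 0.80. AKR1C1, the neighbour of AKR1E2 in the current genome, overlapped, with a difference of -0.33 (SE 0.81). AKR1A1, the general aldehyde reductase, had signals of 2385, 1597, 1919 and 2781 in Meishan and 1189, 1139, 1702 and 2103 in Yorkshire gilts, overlapping (difference 0.52, SE 0.28, limma adjusted p = 0.432).

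**Figure D3:**
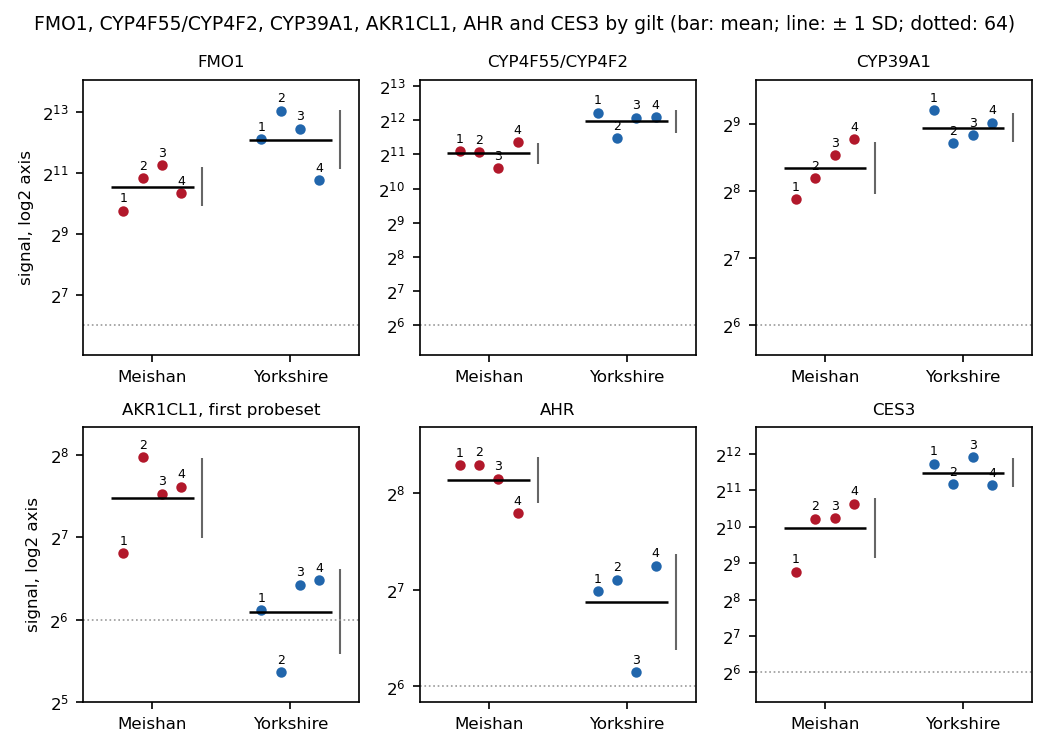
Centred signal of FMO1, CYP4F55/CYP4F2, CYP39A1, AKR1CL1, the receptor AHR and the carboxylesterase CES3 in each gilt on a log2 axis, with gilt numbers, the geometric mean of each breed as a bar, 1 SD to each side and a dotted line at 64. The CYP4F55/CYP4F2, AKR1CL1, AHR and CES3 panels show no overlap between breeds, whereas Yorkshire gilt 4 at 1722 lies among the Meishan gilts for FMO1, and none of the 6 probesets was called.

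UGT2B31, a glucuronosyltransferase of the family that conjugates steroids and bile acids, was the only called member with signals above 64 in every gilt. Its first probeset had signals of 1093, 1068, 1900 and 1768 in Meishan and 393, 426, 471 and 231 in Yorkshire gilts. The lowest Meishan gilt stood well clear of the highest Yorkshire gilt. The means of 1407 and 367 were 3.83-fold apart (difference 1.94, SE 0.31, limma adjusted p = 0.0588). The direction held in all 17 alternative settings, with differences from 1.71 to 2.07, and the call in 10 of them. It was lost in 5 of the 8 settings that left out 1 gilt, with adjusted p up to 0.144.

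The second UGT2B31 probeset did not follow the first. It gave 507, 496, 875 and 906 in Meishan and 928, 998, 1083 and 460.1 in Yorkshire gilts, overlapping, with a difference of -0.30 (SE 0.35, limma adjusted p = 0.732). Within each gilt, the log2 signal of the second minus that of the first was -1.11, -1.11, -1.12 and -0.97 in Meishan and 1.24, 1.23, 1.2 and 0.99 in Yorkshire gilts. The level and sign of this ratio carry no meaning across probesets, but a constant factor of a whole array cancels in it, so its change between gilts can be read. Effects that act unequally on the 2 probesets, such as those that depend on signal level, do not cancel. It varied little within a breed, and the breeds were 2.24 apart in it (SE 0.07), a 4.72-fold change in the ratio. An exact permutation test over gilts gave a two-sided p of 0.0286, the smallest that 70 splits of 8 gilts allow, and 0.143 after Benjamini-Hochberg adjustment over the 5 pairs. The study's list gives the first probeset another name of the same family, UGT2B17, and which gene of the family each probeset reads could not be settled.

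**Figure D4:**
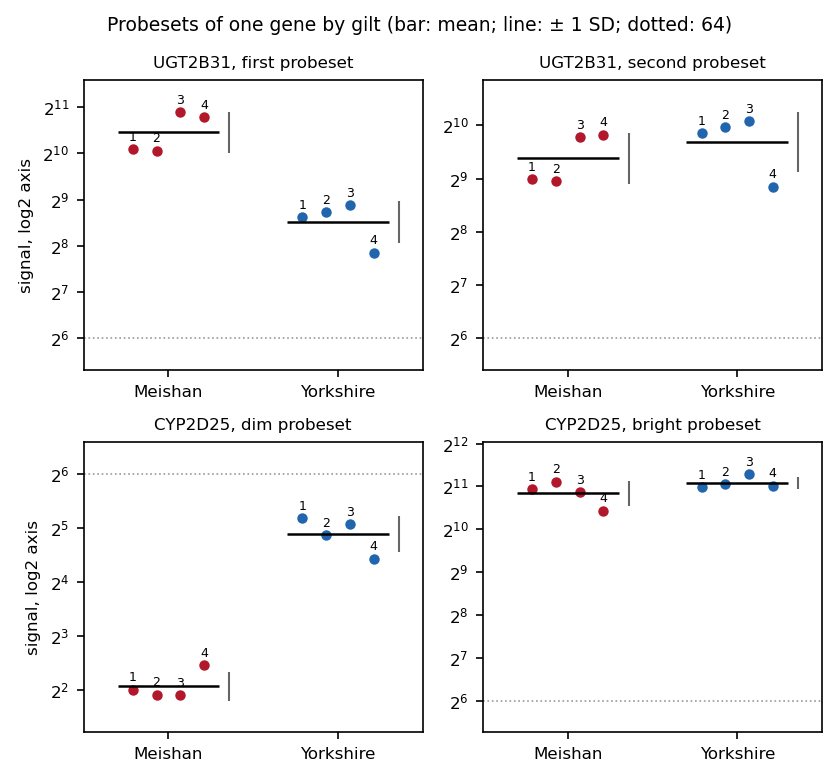
Centred signals of the 2 UGT2B31 and the 2 CYP2D25 probesets in each gilt on a log2 axis, with gilt numbers, the geometric mean of each breed as a bar, 1 SD to each side and a dotted line at 64. The first UGT2B31 probeset separates the breeds (means of 1407 and 367) and the second does not (668 and 824), and of CYP2D25 only the dim probeset does so (4.20 and 29.6).

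Sulfotransferases transfer sulfate to steroids, bile acids and phenols. Of the 3 array-named members 0 were called by limma and 0 had an unadjusted p under 0.05, beside 0.908% and 14.8% of all probesets. With 3 members such counts say little about the family. SULT2A1, which sulfates hydroxysteroids and bile acids, gave 5957, 6223, 2422 and 5717 in Meishan and 3061, 4084, 6287 and 3994 in Yorkshire gilts (difference 0.18, SE 0.36, limma adjusted p = 0.86). SULT1A3, a sulfotransferase of phenols and catecholamines, was even across gilts, at 2488, 1949, 2074 and 1737 in Meishan and 1609, 2064, 2541 and 1939 in Yorkshire gilts, with a difference of 0.02 (SE 0.21, limma adjusted p = 0.971). SULT4A1, named only by the study's list, gave 14.9, 19.1, 12.9 and 16.9 in Meishan and 0.96, 2.95, 2.86 and 5.40 in Yorkshire gilts, all near background.

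SULT1E1, the estrogen sulfotransferase, was singled out after its values were seen, because gilts of the same breed differed so widely in it. Its signals were 5045, 144, 475 and 396 in Meishan and 319, 73.8, 129.7 and 4330 in Yorkshire gilts. Meishan gilt 1 and Yorkshire gilt 4 stood far above all the others, and the highest gilt exceeded the lowest 35.0-fold in Meishan and 58.7-fold in Yorkshire. The breeds overlapped entirely, and the difference of 0.84 (SE 1.47) was not called (limma adjusted p = 0.833). The spread within breeds was at the 99.9 percentile of probesets with a mean of at least 64.

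The same 2 gilts were the highest of their breeds in 6 of 27 array-named members with a mean of at least 64 (22.2%), beside 18.3% of all such probesets, so the pair was not particular to these enzymes. Among them was GSTM3, at 5965, 1482, 1790 and 2691 in Meishan and 4027, 3754, 3139 and 9988 in Yorkshire gilts. Cytochrome b5 (CYB5A), which passes electrons to P450s and was likewise picked out after its values were seen, gave 18810, 5248, 5255 and 5554 in Meishan and 6876, 5779, 6638 and 11200 in Yorkshire gilts. Interferon gamma, which the elongating pig conceptus secretes, gave 14.2, 904, 304 and 114 in Meishan and 4604, 221, 6286 and 33.5 in Yorkshire gilts, lowest in the same 2 animals. The summed list of 6 measured conceptus markers, which includes interferon gamma, was lowest in them, at 368 and 361, where the other 6 gilts had 685 to 7249. Interferon gamma made up most of the 2 highest sums, 4604 of 6341 in Yorkshire gilt 1 and 6286 of 7249 in Yorkshire gilt 3. IL1B and GATA3 were lowest of their breeds in both animals, whereas CYP17A1, CYP11A1 and HSD17B1 were not. The part of the conceptus in the SULT1E1 values was not tested.

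**Figure D5:**
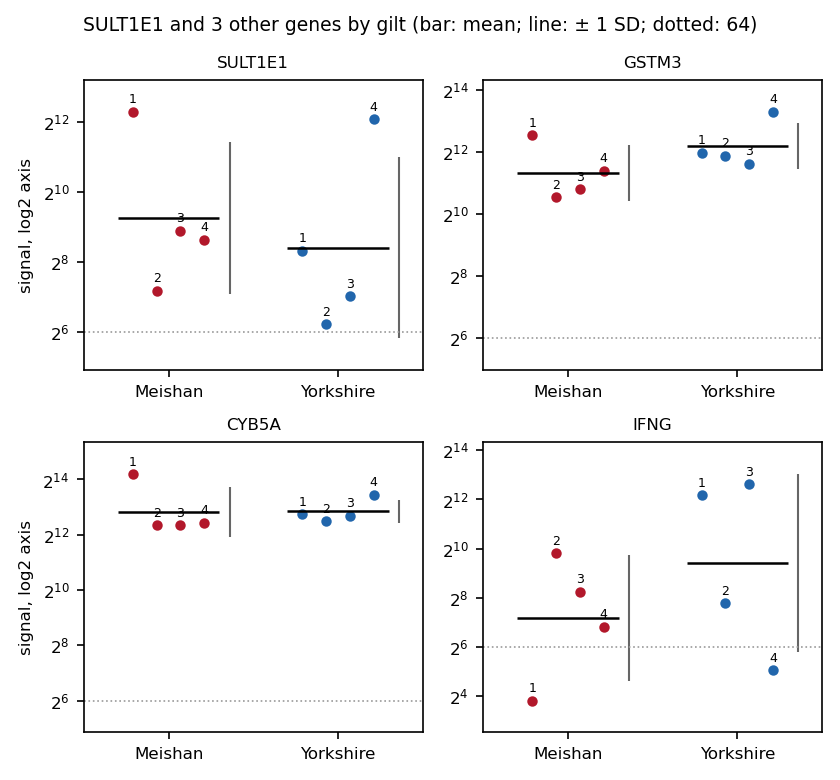
Centred signals of SULT1E1, GSTM3, CYB5A and IFNG in each gilt on a log2 axis, with gilt numbers, the geometric mean of each breed as a bar, 1 SD to each side and a dotted line at 64. Meishan gilt 1 and Yorkshire gilt 4 are the highest of their breeds for the first 3 genes (5045 and 4330 for SULT1E1) and the lowest for IFNG (14.2 and 33.5).

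Glutathione transferases detoxify electrophiles and lipid peroxidation products. GSTM3 lay toward Yorkshire (difference -0.87, SE 0.52, limma adjusted p = 0.483) with overlapping breeds, and so did GSTO1, a thiol transferase, at 1325, 548, 789.9 and 809 in Meishan and 1053, 776, 1037 and 1190 in Yorkshire gilts (difference -0.28, SE 0.29, limma adjusted p = 0.70). GSTP1, named by the study's list, had signals of 10720, 4450, 12270 and 12820 in Meishan and 7238, 3428, 6449 and 6728 in Yorkshire gilts, and gilt 2 was the lowest of both breeds. GSTM1, also named by that list alone, gave 99.6, 40.7, 129 and 128 in Meishan and 1130, 267, 582 and 341 in Yorkshire gilts, without overlap.

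The genes that serve these enzymes were read at the same threshold. Of 82 genes listed as electron and cofactor suppliers, sensors, other phase I enzymes, other conjugating enzymes and carriers, 49 were measured. None was called by limma, with an unadjusted p under 0.05 for 5 toward Meishan and 5 toward Yorkshire, where 14.8% of all probesets had such a p. Partners and cofactor suppliers, 11 measured, had a median difference of -0.03. Among them P450 reductase (POR) overlapped (-0.18, SE 0.34), and PAPSS2, which makes the sulfate donor, gave 738, 2321, 2415 and 2219 in Meishan and 1462, 504, 889 and 690.2 in Yorkshire gilts (1.09, SE 0.47, limma adjusted p = 0.341). GCLC, the catalytic subunit that limits glutathione synthesis, lay toward Yorkshire (-1.02, SE 0.43, limma adjusted p = 0.328), and GCLM, its modifier subunit, toward Meishan (1.01, SE 0.48, limma adjusted p = 0.374).

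Of 7 sensors measured, 3 had an unadjusted p under 0.05, all toward Meishan, beside the 14.8% of all probesets in either direction. AHR, the aryl hydrocarbon receptor that switches on CYP1 genes, had signals of 313, 314, 284 and 221 in Meishan and 127, 138, 70.8 and 152 in Yorkshire gilts. The breeds did not overlap, and the difference of 1.26 (SE 0.28) was not called (limma adjusted p = 0.119). Its other probesets gave 1.14 (SE 0.73), near background with means of 14.3 and 6.46, and 0.43 (SE 0.24), with means of 65.9 and 49.1. Neither was called. NR1I2, the pregnane X receptor that controls CYP2C and CYP3A genes in liver, gave 32.5, 64.5, 65.9 and 20.3 in Meishan and 16.6, 5.62, 11.1 and 7.42 in Yorkshire gilts, again without overlap but near background (2.13, SE 0.48, limma adjusted p = 0.126). Its partner RXRA lay toward Meishan by 0.75 (SE 0.29, limma adjusted p = 0.282).

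Among 17 other phase I enzymes, CES3, a carboxylesterase, had 436, 1196, 1206 and 1593 in Meishan and 3396, 2297, 3838 and 2261 in Yorkshire gilts, without overlap (-1.52, SE 0.42, limma adjusted p = 0.173). EPHX2, which opens fatty acid epoxides, gave 0.73 (SE 0.27) and DPYD, which degrades pyrimidines, -0.65 (SE 0.24), both without a call. Of 7 other conjugating enzymes, GSTA1 lay toward Yorkshire (-0.67, SE 0.20, limma adjusted p = 0.191) and GSTZ1 toward Meishan (0.55, SE 0.18, limma adjusted p = 0.222), each without overlap, while HNMT, which methylates histamine, overlapped (-0.84, SE 0.45). Of 7 carriers, the organic cation carrier SLC22A3 lay at -0.73 (SE 0.31), SLCO1A2 at 0.59 (SE 0.28) and ABCG2, an efflux pump, at -0.29 (SE 0.27), with overlapping breeds.

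The tissue matched its label by markers. All 10 epithelial and glandular markers, with both steroid receptors PGR and ESR1, reached 64 in every gilt, and the summed epithelial list lay at 79220 to 90680 in Meishan and 70290 to 87970 in Yorkshire gilts. The summed lists of 5 stromal markers (56790 to 62460 in Meishan and 45690 to 54740 in Yorkshire) and of 5 endothelial markers (4853 to 4954 and 5149 to 6873) did not overlap between the breeds, although no marker in either was called. The arrays themselves also differed by breed. The 18 spike-in probesets were 1.00 higher on the log2 scale in Meishan (two-sided exact permutation p = 0.0286, the smallest possible), and the 3' to 5' signal ratio of GAPDH was 1.26 to 2.01 in Meishan and 2.45 to 3.08 in Yorkshire. That of actin overlapped and lay the other way, at 0.309 to 0.574 in Meishan and 0.178 to 0.436 in Yorkshire. The spike-ins, the GAPDH ratio and the stromal and endothelial sums move with breed, and their part in the differences was not tested.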

How the data were processed

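Endometrial RNA of 8 gilts, 4 Meishan and 4 Yorkshire, was measured on 1 array per animal. As deposited, the intensities are GCOS 1.2 signals of the authors on a linear scale. The means in the study's list of changed transcripts, read for symbols and as a check of scale only, lay within 0.0266 (natural log) of means of these signals, and its columns of comparisons were not used.

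Signals were put on the log2 scale and centred by subtracting the median of the array (23999 probesets, without 124 controls). Breeds were compared in limma 3.58.1 (R 4.3.3, prior degrees of freedom 2.09), with Benjamini-Hochberg adjustment over all probesets and a call at an adjusted p under 0.1. The study set 0.1 on q-values instead, and its mixed model reduces to a breed term with 1 array per animal. Its list holds 2502 of these probesets, where 218 were called here, and the reason for the gap was not tested. CYP2E1, FMO1, AKR1A1, AKR1E2 and the bright CYP4F55/CYP4F2 probeset are in that list but were not called here. The procedure was tested on simulated data. The gilts are separate animals, and their number limits the precision. Array medians before centring were 168.5 to 194.7 in Meishan and 171.1 to 187.3 in Yorkshire. Detection calls were not used.

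Symbols came from the annotation of the array, in which 10069 probesets have 1 symbol, 198 have several and 13732 have none, and from 2502 probesets of the study's list, which name 6 members differently. Neighbouring genes were read from RefSeq (Sscrofa11.1), where 2 probesets, both CYP3A39, found no current symbol. No protein or promoter sequence was described. Members and lists were chosen with earlier results of these data known. Values in every gilt are given for called members, for those with an unadjusted p under 0.05 and a mean of at least 64, for those in the study's list and for the 2 genes of each family with the highest signal. Of each pathway list up to 3 genes with the lowest p are named, some by their difference alone, and other genes are named by choice. Pathway genes were read at the probeset with the highest signal. Over all probesets, the deviations of gilts with the same replicate number in the 2 breeds were hardly correlated (-0.0561, 0.089, 0.001 and 0.0407). The labels do not say what the numbers stand for. Such correlations cannot show whether gilts of the same number shared a step of handling, and the main fit used no pairing. Alternatives were no further scaling, quantile normalization, a mean of at least 64, a floor of 32, an intensity trend, no moderation, Storey q-values, a threshold of 0.05, a replicate block, names of the array alone and leaving out each gilt.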

Additional observations from a re-analysis of the deposited data

Results flagged for a closer look

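In 7 of 58 groups of 4 gilts, 1 gilt stood apart from the other 3 on the log2 scale, by a gap that was a large part of the whole range (Dixon's ratio above its critical value for 4 values). Chance gives about 1 in 20 groups. The ratio was 0.848 for CYP2C49 in Yorkshire, where gilt 3 was the lowest at 3.63. It was 0.831 for CYP2D6 in Yorkshire, where gilt 4 was the highest at 1188. For AKR1E2 it was 0.969 in Meishan, with gilt 3 the lowest at 22.1. GSTP1 had a gilt apart in both breeds, gilt 2 in each case, the lowest at 4450 in Meishan (0.831) and at 3428 in Yorkshire (0.846). The CYP27A1 probeset with the highest signal had Meishan gilt 1 as the lowest at 393 (0.912). SULT2A1 had Meishan gilt 3 as the lowest at 2422 (0.91).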

How the results depend on the processing

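Calls depended on the processing. The counts below are over all 65 members, 6 called beside 218 of all probesets, and so include the 5 that the study had called. Of the 60 named by the array 4 were called, 1 with the floor of 32 and at an adjusted p under 0.05, 3 without moderation, 7 with a trend, 8 with Storey q-values, and 1 to 4 without 1 gilt. The counts were 1 and 863 with signals below 32 set to 32, 3 and 227 without moderation, 11 and 632 with Storey q-values, and 1 and 60 at an adjusted p under 0.05. An intensity trend gave 9 members and 626 of all probesets, and testing probesets with a mean of at least 64 alone gave 5 and 668. Leaving out 1 gilt gave 1 to 5 members and 72 to 205 of all probesets, and only the dim CYP2D25 probeset was called in each of these 8 settings. With the replicate number as a block, 0 members and 0 of all probesets were called in limma (lowest adjusted p 0.149 and 0.102), with an unadjusted p under 0.05 for 25 members and 3327 of all probesets. The labels do not say whether the numbers pair gilts, so whether this block belongs in the fit could not be settled. Under no further scaling the counts were 6 and 212, and 5 and 239 after quantile normalization, and CYP2C, 9 of 10 toward Meishan under the first, had 8 of 10 under the second.

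The direction turned in 7 cases, all close to 0. FMO5 gave 0.045 without Yorkshire gilt 1 and 0.008 without Yorkshire gilt 2, in a range of -0.833 to 0.045 over the left-out gilts. CYP27A1 gave 0.038 after quantile normalization, 0.159 without Meishan gilt 1 and 0.022 without Yorkshire gilt 3 (range -0.227 to 0.159). SULT1A3 gave -0.071 without Meishan gilt 1 and -0.084 without Yorkshire gilt 1 (range -0.084 to 0.136). With the floor of 32, CYP3A4 gave 0.81 and SULT4A1 gave 0. The cause of these changes was not tested beyond what each setting does. Signals below 64 are near background, and 33 of the 60 array-named members have such a mean, so their differences rest on values that a floor can remove.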

Other observations

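Several pathway genes have more probesets than the one described, and these were chosen after their values were seen. HNF4A, a nuclear receptor that drives many liver genes, lay at -0.09 at its main probeset (SE 0.28) and at 1.00 toward Meishan at another (SE 0.29, means of 111 and 55.4, limma adjusted p = 0.185). ABCB1, an efflux pump, gave -0.10 (SE 0.24) at its main probeset, -0.20 (SE 0.26) at a second and 1.45 (SE 0.52) at a dim one with means of 50.9 and 18.6. GSTA1 lay toward Yorkshire at all 3 of its probesets, by -0.67, -0.69 and -1.54, and none was called. ABCG2 gave -0.29 (SE 0.27) at its main probeset and -0.98 (SE 0.39, limma adjusted p = 0.302) at the other, both toward Yorkshire. GSTZ1, toward Meishan at its main probeset, gave -0.19 (SE 0.25) at its other one, with means of 137 and 157. GCLC, toward Yorkshire at its main probeset, gave -1.13, -0.62, -0.39 and 0.63 at its others. None of these probesets was called.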
